A study of Mus musculus with 5 samples.

Results

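The barcodes described here came from kidney and held transcripts of both Vcam1 and the proximal tubule. A barcode is the tag of one droplet, and a unique molecular identifier (UMI) counts one captured transcript. Vcam1-positive barcodes had at least 2000 UMIs, at least 200 genes and at most 25% of UMIs on mitochondrial genes, at least 2 UMIs of Vcam1, at most 2 of Havcr1, at least 1 in the sum of Lrp2, Cubn and Slc34a1, and none of Mki67, Ptprc, C1qa, C1qb, C1qc or Pecam1. They numbered 305 of the 36206 barcodes that met every limit but that on Vcam1, and of the 43155 barcodes that met the limits on UMIs, genes and mitochondrial share. They were compared with the 35495 barcodes under the same limits that held no Vcam1 UMI (Vcam1-zero), while the 406 barcodes with 1 Vcam1 UMI were in neither group. Because Vcam1, Havcr1, Lrp2, Cubn, Slc34a1 and the genes held at 0 were the measured values the barcodes were chosen by, their values are a description.

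The data came from the kidneys of male C57BL/6J mice aged 6 to 8 weeks. Unilateral ischemia-reperfusion (UIR) was made by clamping the left renal pedicle for 35 min with the right kidney left in place, and kidneys were taken on day 1, 3, 14 or 28. Sham mice had the operation without the clamp. Each of these 5 conditions is listed as 1 sample, each from the kidneys of 3 mice, and single cells were captured in droplets. The barcodes carry 5 library numbers, while the methods of the study describe more matrices than that, merged from several UIR and several control samples. How these relate is not given in the sources used here. The labels do not tie the library number of a barcode to sham or to a day, so the matrix was treated as 1 pooled sample, libraries are named by number, and no value is split by day. Tests were left out, although libraries 1 to 4 held both groups compared, because a measured gene of the same barcodes set the groups. Intervals are exact 95% intervals (Poisson for levels, Clopper-Pearson for shares) that cover counting error only.

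Vcam1 (ENSMUSG00000027962, chromosome 3, positions 116109949 to 116129688 of GRCm38, minus strand) encodes vascular cell adhesion molecule, a surface protein that cytokines induce through NF-kB and that binds integrins on leukocytes. After ischemic injury most proximal tubule cells regrow and regain their transporters, and the cells that do not are described as failed-repair tubule, a state marked by Vcam1, Dcdc2a and chemokines such as Ccl2. Havcr1, the kidney injury molecule, marks the earlier acute response. Parietal epithelial cells of the glomerular capsule, activated endothelium, some stromal cells and some macrophages also carry Vcam1.

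Most Vcam1-positive barcodes came from libraries 1 and 2. Libraries 1 to 5 held 87, 149, 36, 28 and 5 of them. Of the barcodes under the shared limits, these were 1.61% (1.29 to 1.98), 2.45% (2.08 to 2.87), 0.320% (0.224 to 0.443), 0.452% (0.301 to 0.653) and 0.0688% (0.0223 to 0.160), and 0.842% (0.751 to 0.942) over all libraries. Each of libraries 1 and 2 thus lay above libraries 3, 4 and 5, and their own intervals did not overlap, while libraries 3 and 4 overlapped. At 1 fixed depth of 2000 UMIs per barcode, 1.98%, 2.43%, 0.418%, 0.371% and 0.0825% of barcodes under the shared limits kept a Vcam1 UMI. There the intervals of libraries 1 and 2 overlapped (1.62 to 2.38 and 2.06 to 2.85), and both stayed above those of libraries 3, 4 and 5. The Vcam1 level over all these barcodes was 19.1, 22.4, 3.65, 3.09 and 0.546 CPM (counts-per-million, UMIs scaled to the total of the group). Libraries 1 and 2 were the highest on each of the 3 measures.

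**Figure D1:**
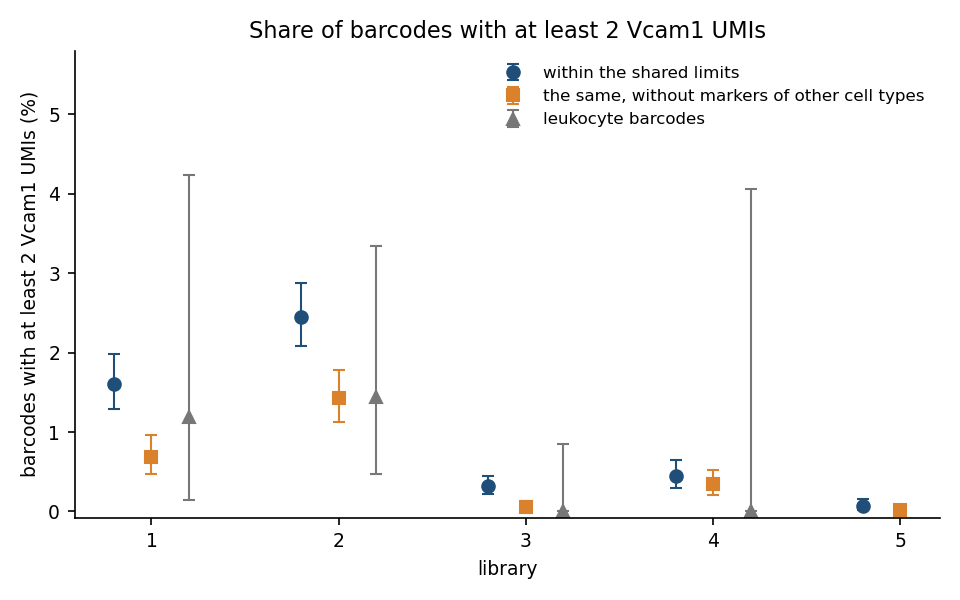
Share of barcodes with at least 2 Vcam1 UMIs (%) in each library, with exact 95% intervals, for barcodes under the shared limits, for those without markers of other cell types, and for leukocyte barcodes in libraries with at least 50 of them. Libraries 1 and 2 are the highest in the first 2 groups, and the leukocyte intervals are wide.

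The same count in leukocytes was of similar size. Of 1053 barcodes with at least 5 UMIs of T and NK cell, B cell or neutrophil markers, 7 held at least 2 Vcam1 UMIs, or 0.665% (0.268 to 1.36), at a median depth of 3662 UMIs against 5984 under the shared limits. All 7 were in libraries 1 and 2, where they were 2 of 168 and 5 of 346 barcodes. The intervals of the shares in leukocytes and under the shared limits overlapped, at unlike depth and on 7 leukocyte barcodes. Of these 7, 3 held at least 5 Vcam1 UMIs, all in library 2. Whether leukocyte barcodes measure a background of free RNA was not tested. In near-empty droplets of 10 to 100 UMIs, Vcam1 stood at 18.4 to 36.7 CPM in the 5 libraries, which comes to 0.165 to 0.378 UMI at the median depth of the Vcam1-positive barcodes of each library, the highest in library 2. Among the 305, 114 held exactly 2 Vcam1 UMIs, 71 held 3 or 4 and 120 held 5 or more, with a median of 3 and a highest count of 57. How many of them carried Vcam1 from free RNA was not tested.

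The Vcam1-positive barcodes were deeper than the Vcam1-zero ones. Their median was 10102 UMIs and 3069 genes against 5956 UMIs and 2063 genes, and 18.03% against 1.26% held over 20000 UMIs. Their median mitochondrial share was 7.76% against 11.6%. Barcodes with the highest doublet scores made up 8.197% and 7.02% of the groups. In libraries 1 and 2, which held most of the 305, they were 11.5% against 4.29% and 7.38% against 5.22%. In libraries 3, 4 and 5 the order was the reverse, at 8.33% against 10.7%, 3.57% against 5.57% and 0% against 5.97%. Of the 42957 barcode sequences within the depth limits, 196 occurred in more than 1 library, and 1 of the 305 was among them. Over all genes tested the median within-library log2 ratio was 0.13, and single ratios are to be read against it.

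These barcodes held markers of the proximal tubule and, in part, of other cell types. Failed-repair genes are given further below, and whether the label of failed-repair tubule holds was not tested. Markers of the proximal tubule had at least 2 UMIs in 302 of 305, but their summed level was 16026 CPM against 39391 in Vcam1-zero barcodes and 19384 in near-empty droplets. Most of this sum was the single gene Kap, and without it the levels were 2944 and 6796 CPM. At the near-empty level, free RNA alone can give 2 UMIs at these depths. The count of 302 therefore cannot tell transcripts of the cell from free RNA. Markers of parietal epithelial cells (Cldn1, Ncam1, Akap12, Wt1, Scin) had at least 2 UMIs in 159 barcodes, or 52.1% (46.4 to 57.9) against 2.15%, and stood at 821 CPM against 23.8, with 431 to 1023 over the libraries. Fibroblast and pericyte markers had at least 2 UMIs in 56 barcodes, or 18.4% against 0.406%, with 14.2 to 1692 CPM over the libraries. Parietal markers were thus high in every library, whereas stromal markers were in their lowest library within the range of Vcam1-zero barcodes (12.1 to 46.5 CPM).

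Thin limb markers, which include the stress chaperone Cryab, had at least 2 UMIs in 64.9% against 10.9%. Of these markers Sptssb had no UMI in Vcam1-positive barcodes, and how much of the share was Cryab alone was not tested. Macrophage and monocyte markers stood at 59.2 CPM against 60.3, and had at least 2 UMIs in 33 barcodes, or 10.8% (7.57 to 14.9) against 3.24%. Near-empty droplets held macrophage and monocyte markers at 770 CPM. Podocyte markers were at 256 CPM there and at 59.9 in Vcam1-positive barcodes. Vcam1-positive barcodes were deeper, and the parts of depth and of free RNA in the shares at 2 UMIs were not tested for any marker list. Endothelial markers had at least 2 UMIs in 5 barcodes, and the 4 B cell markers were at 0. In all, 167 of the 305 (54.8%) held at least 2 UMIs of a non-tubule marker list (parietal epithelial, podocyte, endothelial, fibroblast and pericyte, macrophage and monocyte, neutrophil, T and NK cell, B cell), against 8.52% of Vcam1-zero barcodes. Because these 167 held such markers, the group is called Vcam1-positive barcodes, and results are given for all 305 and for the 138 without them. Whether the 167 were failed-repair tubule cells was not tested. Libraries 1 to 5 held 34, 77, 6, 20 and 1 of the 138.

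Values just inside and outside the other limits were as follows. Havcr1 was 0 in 241, 1 in 44 and 2 in 20 of the 305, and 4 further barcodes with Vcam1 had exactly 3. The sum of Lrp2, Cubn and Slc34a1 was exactly 1 in 31 barcodes, under 5 in 80, and 0 in 57 barcodes left outside. Cubn, the endocytic receptor cubilin, was at 94.1 CPM (95% interval 84.9 to 104) against 170.0 CPM (95% interval 168 to 172). Without other markers the levels were 171 and 173 CPM.

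Genes were compared within libraries 1 to 4, which had at least 20 barcodes in each group. UMIs were summed per library and group, 10 CPM was added, and a gene was called when the median log2 ratio over libraries passed 1 (2-fold) with the same sign in every library. The 5671 genes tested had a mean level of at least 20 CPM over both groups, which a gene could reach through the Vcam1-positive group alone. Of these genes, 348 were called higher (6.14%) and 126 lower (2.22%). Of the 348, 181 were below 20 CPM in Vcam1-zero barcodes and had to be higher in the Vcam1-positive group to be tested. Among the 5245 genes at that level in Vcam1-zero barcodes alone, an alternative added after seeing the data, 167 were called higher (3.18%) and 135 lower (2.57%). For most lists with genes called higher, counts are therefore also given for these genes, as genes expressed in Vcam1-zero barcodes. Without other markers (libraries 1, 2 and 4), 5248 genes were tested, of which 78 were called higher (1.49%) and 23 lower (0.438%). Of the 5090 genes expressed in Vcam1-zero barcodes there, 44 were called higher (0.864%) and 27 lower (0.530%). Both comparisons called 62 genes higher, which is 17.8% of the 348 and 79.5% of the 78, and 20 genes lower, which is 15.9% and 87.0%. Of the 348 genes, 58 had a median of the opposite sign without other markers.

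Over all 305 barcodes, genes among the 12 highest ratios were Tagln (transgelin, an actin-binding protein of smooth muscle), Vim (vimentin), Akap12 (a kinase anchoring protein), Cp (ceruloplasmin), Sparc (a matrix protein), Ankrd1, Cdh6, Cald1, Tmsb10, Ncam1 and C3, with medians from 3.73 to 4.90. All of these but Sparc, Tmsb10 and C3 were below 20 CPM in Vcam1-zero barcodes and were tested through the Vcam1-positive group. Tagln was at 3491, 1467, 226 and 142 CPM in libraries 1 to 4 against 19.9, 14.2, 6.03 and 4.61 in Vcam1-zero barcodes. Its levels differed most in libraries 1 and 2, and 48.9% of its UMIs lay in 10 barcodes. Only 69 of the 305 held a Tagln UMI, and without other markers its ratio was -0.06. Ankrd1 and Cald1 also turned sign there, at -0.040 and -0.047.

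Without other markers the 12 highest shared Cp and C3 with those named above. They were Cd74, Ccl2, Cxcl10, C3, H2-Eb1, H2-Ab1, H2-Aa, Cryab, Cp, Irf1, Cxcl1 and Ubd, which include class II antigen presentation, chemokines, complement and interferon targets. Of these, Ccl2, Cp, Irf1, Ubd and H2-Aa were below 20 CPM in Vcam1-zero barcodes. Their medians ran from 2.29 (Ubd, a ubiquitin-like protein) to 3.85 (Ccl2) and 3.85 (Cd74). Removing barcodes by markers lowers the markers themselves, so the ratios of Akap12, Ncam1 and Cldn1 in the 138 carry no information.

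**Figure D2:**
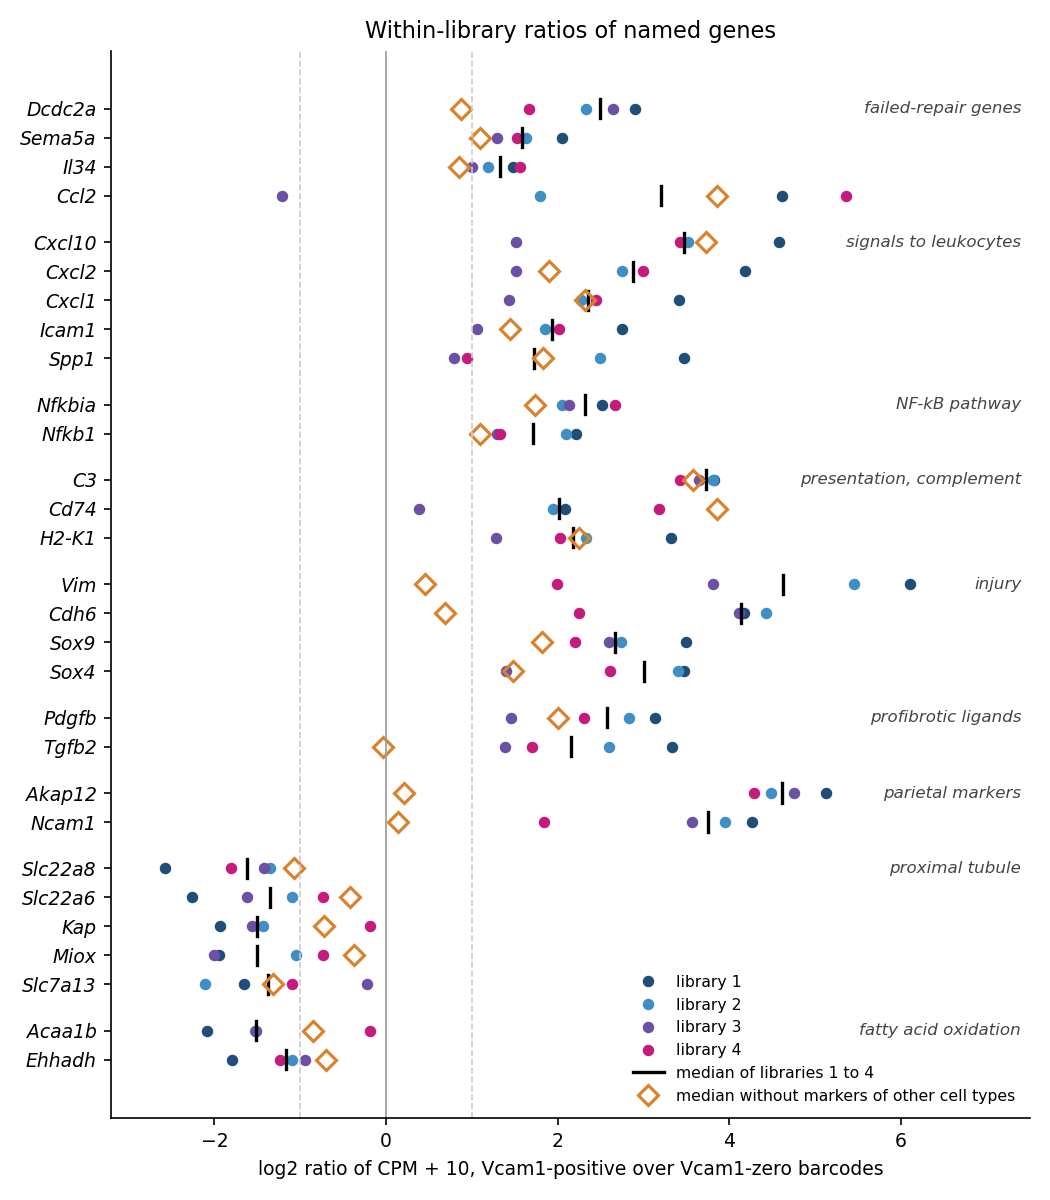
Log2 ratio of CPM + 10 (Vcam1-positive over Vcam1-zero barcodes) for named genes in libraries 1 to 4 (points), with the median (black bar) and the median without markers of other cell types (open diamond, libraries 1, 2 and 4). Dashed lines stand at -1 and 1. Vim, Cdh6 and Tgfb2 drop towards 0 without other markers, whereas Cxcl10, C3 and Cd74 do not, and the parietal markers drop because barcodes were removed by them.

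Of the failed-repair genes, 3 of 4 tested were called higher, and both of those expressed in Vcam1-zero barcodes (Dcdc2a and Sema5a). Both lay near the limit of 20 CPM there, which Dcdc2a passed in libraries 1 and 2 alone and Sema5a in library 3 alone. Dcdc2a, a doublecortin-domain protein of cilia, was at 249, 189, 148 and 66.3 CPM in libraries 1 to 4 against 24.6, 29.4, 15.3 and 14.0. Every library lay above its Vcam1-zero level, by 2.49 (range 1.67 to 2.91) on the log2 scale. At 2000 UMIs per barcode it was seen in 26.2% (21.4 to 31.5) of Vcam1-positive and 2.97% (2.79 to 3.15) of Vcam1-zero barcodes. Without other markers Dcdc2a was at 96.2, 59.8 and 22.7 CPM in libraries 1, 2 and 4 against 22.0, 28.2 and 13.6, a median of 0.87 that was not called.

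Sema5a, a guidance-molecule gene, was at 82.2, 79.3, 90.2 and 71.0 CPM against 12.2, 18.7, 30.9 and 18.2, with a ratio of 1.58 (range 1.29 to 2.05). Without other markers it stood at 1.10 (range 0.88 to 1.10), where it was below 20 CPM in Vcam1-zero barcodes and tested through the Vcam1-positive group. Of the failed-repair genes Dcdc2a alone was expressed in Vcam1-zero barcodes there, and 0 of 1 was called. Il34, a ligand of the macrophage growth factor receptor, was at 60.7, 50.2, 55.9 and 42.6 CPM against 15.5, 16.4, 23.0 and 7.83, with a ratio of 1.33 (range 1.00 to 1.56), and at 0.85 (range 0.54 to 1.24) without other markers, where it was not called. Its UMIs at 2000 per barcode were found in 6.56% (4.05 to 9.95) of Vcam1-positive and 2.71% (2.54 to 2.88) of Vcam1-zero barcodes.

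Ccl2, the main chemokine for monocytes, was unevenly spread. It was at 256, 29.1, 0 and 438 CPM in libraries 1 to 4 against 0.912, 1.27, 13.2 and 0.923, so that libraries 1 and 4 were high, library 2 was modest and library 3 held no UMI in its 36 Vcam1-positive barcodes. A count of 3 UMIs there would be 5.41 CPM. The gene was therefore not called, at a median of 3.20 (range -1.22 to 5.36). Only 39 of the 305 barcodes (12.8%, 9.25 to 17.1) held a Ccl2 UMI against 0.772% of Vcam1-zero barcodes. Of its 530 UMIs, 16.2% lay in 1 barcode and 77.0% in 10. Libraries 1, 2 and 4 were all above their Vcam1-zero level, so library 3 alone kept the gene from being called. Without other markers library 3 was not used and Ccl2 was called higher at 3.85 (range 0.25 to 4.29), but it was found in only 5 of the 138 barcodes (3.62%). These were 2 barcodes with 50 UMIs in library 1, 1 with 2 UMIs in library 2 and 2 with 32 UMIs in library 4, so the call rests on a few barcodes.

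Most tested genes for signals to leukocytes were called higher with and without other markers. Of 9 tested of 15, 7 were called higher and 0 lower, with a median of 1.93. Without other markers 7 of 8 were called higher, with a median of 1.86. The 7 over all barcodes were Cxcl1, Cxcl2, Cxcl10, Cxcl16, Il34, Icam1 and Spp1, of which Il34 was below 20 CPM in Vcam1-zero barcodes. The 7 without other markers held Ccl2, on its 5 barcodes, and not Il34. Among genes expressed in Vcam1-zero barcodes, 6 of 6 were called higher, and 5 of 5 without other markers.

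Cxcl10, an interferon-induced chemokine for T cells, was at 802, 623, 215 and 388 CPM in libraries 1 to 4 against 23.9, 45.0, 68.5 and 27.0. Each library lay above its Vcam1-zero level, least in library 3, with a ratio of 3.48 (range 1.52 to 4.58). Without other markers it was at 1042, 517 and 414 CPM in libraries 1, 2 and 4 against 22.0, 43.8 and 21.9. At 2000 UMIs it was seen in 38.7% (33.2 to 44.4) of Vcam1-positive and 3.23% (3.05 to 3.42) of Vcam1-zero barcodes. Cxcl1 and Cxcl2, chemokines for neutrophils with closely related sequences, were at 818, 466, 491 and 511 and at 294, 262, 161 and 206 CPM against 67.8, 89.0, 175 and 85.4 and 6.76, 30.4, 49.9 and 17.1. Library 1 was the highest and library 3 the lowest in ratio for both genes, with medians of 2.36 and 2.87. Without other markers Cxcl2 was below 20 CPM in Vcam1-zero barcodes and tested through the Vcam1-positive group, at 1.89.

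Icam1, an adhesion molecule that binds leukocyte integrins like Vcam1 does, was at 351, 255, 119 and 166 CPM against 43.9, 63.1, 51.9 and 33.6, with a ratio of 1.93 (range 1.06 to 2.74). Spp1, the secreted phosphoprotein osteopontin, was the most abundant gene of the list at 10048, 11066, 28775 and 7650 CPM against 893, 1962, 16578 and 3962. Its Vcam1-zero level in library 3 exceeded the Vcam1-positive level in libraries 1, 2 and 4, so the ratio of 1.72 (range 0.80 to 3.48) holds within libraries and not across them. Cx3cl1, fractalkine, was not called (0.53 (range 0.17 to 1.35)), and Ccl7, Ccl20, Csf1, Il6, Lif and Il18 did not reach the level for testing.

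The promoters of the 3 chemokines are shown because all 3 genes were called over all barcodes and all 3 hold a match to the kappaB consensus, the DNA motif of NF-kB. Each run is the 200 bases before the RefSeq gene start (GRCm38.p6), 5′ to 3′, with bases of a motif match on either strand in capitals. They are from chr5:90891045-90891244, plus strand (Cxcl1), chr5:90903699-90903898, plus strand (Cxcl2) and chr5:92348890-92349089, minus strand (Cxcl10).
Cxcl1: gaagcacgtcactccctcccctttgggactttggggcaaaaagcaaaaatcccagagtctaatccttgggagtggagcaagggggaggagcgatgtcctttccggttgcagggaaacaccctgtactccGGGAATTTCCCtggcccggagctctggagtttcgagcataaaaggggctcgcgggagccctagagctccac
Cxcl2: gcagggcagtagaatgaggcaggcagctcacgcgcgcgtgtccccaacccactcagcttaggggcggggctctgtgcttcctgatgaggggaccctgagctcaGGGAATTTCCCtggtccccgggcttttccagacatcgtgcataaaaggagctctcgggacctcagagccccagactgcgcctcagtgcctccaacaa
Cxcl10: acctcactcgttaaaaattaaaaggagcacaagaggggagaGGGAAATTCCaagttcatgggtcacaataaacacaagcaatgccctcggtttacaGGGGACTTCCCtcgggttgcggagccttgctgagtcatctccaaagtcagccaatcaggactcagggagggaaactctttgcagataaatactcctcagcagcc
Overlapping matches on both strands make up the capital runs nearest the start. In the 250 bases before the start, the motif was found in 8.23% of 27025 genes with a promoter sequence and in 10.0% of those tested. It was found in 19.3% of 270 genes called higher, in 26.7% of 60 genes called higher without other markers, and in 14 of 22 genes of the NF-kB and leukocyte-signal lists. Among genes expressed in Vcam1-zero barcodes it was found in 9.87% of those tested and in 22.1% of 136 called higher, and without other markers in 24.2% of 33 called higher. These shares are a description with no test. These lists hold known NF-kB targets, and a match is not evidence of binding.

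In the NF-kB pathway list, 6 of 7 genes tested of 14 were called higher, namely Nfkb1, Nfkb2, Rela, Nfkbia, Birc3 and Bcl3. All but Nfkbia were below 20 CPM in Vcam1-zero barcodes and were tested through the Vcam1-positive group, so the count says little about the list. Of the 2 genes expressed in Vcam1-zero barcodes, Nfkbia was called and Nfkbiz was not. Nfkbia, the inhibitor that NF-kB itself induces, was at 737, 545, 523 and 471 CPM in libraries 1 to 4 against 121, 124, 112 and 65.6, a ratio of 2.32 (range 2.05 to 2.67). Its 4 libraries were all above 4-fold on this scale. Nfkb1, a subunit gene, was at 86.6, 74.0, 46.9 and 35.5 CPM against 10.8, 9.61, 13.2 and 8.14 (1.71 (range 1.30 to 2.22)). Without other markers only 3 genes of the list reached the level for testing and Nfkbia alone was called (1.73 (range 1.53 to 2.63)), while Nfkb1 stood at 1.10 (range 0.90 to 1.11).

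Genes of antigen presentation and complement were called higher in 10 of 11 tested of 15, with a median of 1.56. Without other markers 9 of 10 were called, with a median of 2.51. Among genes expressed in Vcam1-zero barcodes the counts were 8 of 9 and 7 of 8. C3, the central complement component, was at 378, 617, 478 and 379 CPM against 17.4, 34.5, 29.0 and 26.2. Its ratio of 3.73 (range 3.43 to 3.83) was even over the libraries, and at 2000 UMIs it was seen in 44.3% (38.6 to 50.03) of Vcam1-positive and 3.75% (3.55 to 3.95) of Vcam1-zero barcodes. H2-K1, a class I gene whose close relatives can share reads, was at 1288, 670.0, 245 and 374 CPM against 119.9, 125, 94.7 and 84.4.

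Cd74, the invariant chain of class II molecules, was at 782, 730.3, 74.0 and 564 CPM against 176, 182, 54.3 and 53.4, with library 3 far below the others. Without other markers it was at 1973, 913 and 854 CPM in libraries 1, 2 and 4 against 127, 158 and 45.7, so its ratio was 3.85 (range 2.46 to 3.96) in place of 2.02 (range 0.39 to 3.18). H2-Aa, H2-Ab1 and H2-Eb1, the class II chains, went the same way, with medians of 1.45, 1.40 and 1.40 over all barcodes and 2.77, 2.83 and 2.96 without other markers. Macrophage and monocyte markers stood at 38.6 to 177 CPM over the libraries in Vcam1-positive and 30.7 to 120.4 in Vcam1-zero barcodes, and at least 2 such UMIs were in 10.8% against 3.24% of all barcodes. Ptprc and C1q genes were held at 0 by the choice of barcodes, and the part of macrophage RNA in the class II levels was not tested.

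Of the injury and dedifferentiation genes, 9 of 19 tested of 22 were called higher and 0 lower (median 1.32). They were Krt18, Sox4, Sox9, Vim, Cdh6, Anxa2, Anxa3, Spp1 and Tnfrsf12a, of which Krt18 had a median just below 0 when Vcam1-zero barcodes were weighted to the same depth. Sox9, Vim, Cdh6 and Anxa3 were below 20 CPM in Vcam1-zero barcodes, and 5 of 13 genes expressed there were called. Sox9, a transcription factor of regenerating tubule, was at 183, 126, 193 and 90.0 CPM against 7.19, 10.3, 23.5 and 11.8, a ratio of 2.67 (range 2.20 to 3.49) with every library above its Vcam1-zero level. It was seen at 2000 UMIs in 20% (15.7 to 24.9) of Vcam1-positive and 1.68% (1.55 to 1.82) of Vcam1-zero barcodes. Sox4, a related factor, had a ratio of 3.01 (range 1.40 to 3.47), and without other markers they stood at 1.82 and 1.48, both tested there through the Vcam1-positive group. Of 6 genes of the list expressed in Vcam1-zero barcodes without other markers, Spp1 and Tnfrsf12a were called higher.

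Vim and Cdh6 moved with the parietal and stromal markers. Vim was at 2038, 971, 379 and 56.8 CPM against 19.7, 12.4, 17.8 and 6.84, and Cdh6, a cadherin of developing nephrons, at 267, 303, 254 and 49.7 against 5.40, 4.52, 5.30 and 2.58. Without other markers their medians were 0.46 and 0.69, below the level for testing. Lcn2, the injury marker lipocalin, was not called (-0.30 (range -2.004 to 3.33)), and 54.2% of its UMIs in Vcam1-positive barcodes lay in 1 barcode. Clu was not called either (0.65 (range -1.28 to 2.07)), nor was Krt8 (0.61 (range 0.37 to 1.11)).

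Among the profibrotic ligands, 4 of 7 tested of 12 were called higher, which were Tgfb2, Pdgfa, Pdgfb and Ccn2. Of these, Pdgfa alone was expressed in Vcam1-zero barcodes at 20 CPM or more, among 4 such genes, and the others were tested through the Vcam1-positive group. Pdgfb, a mitogen of pericytes and fibroblasts, was at 147, 184, 88.4 and 97.1 CPM against 7.98, 17.2, 25.8 and 11.6 (2.57 (range 1.46 to 3.13)) and stood at 2.002 (range 1.18 to 2.23) without other markers, where it was the only one called and was again tested through the Vcam1-positive group. Of 4 genes of the list expressed in Vcam1-zero barcodes without other markers, 0 were called (median 0.37). Tgfb2 was at 101, 56.6, 18.05 and 23.7 CPM against 1.01, 1.00, 0.709 and 0.355 over all barcodes. Without other markers Tgfb2 and Ccn2 stood at -0.03 and -0.27.

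The arrest and p53 list had 4 of 10 tested genes called higher (Cdkn1a, Gadd45b and Phlda3 among them) and a median of 0.35. Among 7 genes expressed in Vcam1-zero barcodes, Cdkn1a was the only one called. Cdkn1a, the cell cycle inhibitor, was at 255, 81.4, 188 and 168 CPM against 43.1, 40.7, 38.0 and 33.8 (2.03 (range 0.85 to 2.32)), and at 0.54 (range -0.30 to 2.88) without other markers, where its libraries differed in sign. Gadd45b stood at 2.37 and 1.44 in the comparisons, tested in both through the Vcam1-positive group, and 0 of 7 genes expressed in Vcam1-zero barcodes were called without other markers. Cdkn2a and Cdkn2b did not reach the level for testing.

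Of the immediate early genes, 4 of 14 were called higher (Junb, Egr1, Atf3, Ier3). Atf3, a stress transcription factor, was at 1029.9, 948, 1384 and 1039 CPM against 138, 242, 416 and 251 (1.97 (range 1.71 to 2.81)), and was also called without other markers (1.82). In the junction list Cldn1, Cldn3 and Tjp1 were called higher among 9 tested, and none of 4 without other markers. In the transcription factor list Runx1 and Creb5 were called higher among 14, with a list median of -0.32. Without other markers they stood at -0.071 and 0.70, and of 12 tested Elf3 alone was called, through the Vcam1-positive group. The 5 junction and factor genes called over all barcodes were below 20 CPM in Vcam1-zero barcodes, and among those expressed there 0 of 6 and 0 of 11 were called. Hnf4a, which maintains proximal tubule identity, was at 113, 139, 101 and 128 CPM against 222, 199, 121 and 204 (-0.56 (range -0.92 to -0.24)), and was not called. Itgb1, the one testable receptor subunit for Vcam1, was called higher (1.20 (range 0.42 to 2.22)) and stood at 0.11 without other markers, while Itga4 and Itgb7 did not reach the level for testing.

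Some genes of the proximal tubule lists, which hold transporters and metabolic enzymes, were called lower and none higher. In the list of early segments (S1/S2), 6 of 16 were called lower and 0 higher, with a median of -0.89. In the late-segment list (S3), 4 of 9 tested were called lower (median -1.23), and in the list for all segments 5 of 10 (median -0.99). Without other markers the counts were 1 of 16, 2 of 9 and 0 of 10, and the medians -0.32, -0.48 and -0.27. Of 10 late-segment genes expressed in Vcam1-zero barcodes, 4 were called lower (median -1.05), and 2 of 10 without other markers (median -0.71).

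Slc22a8, an organic anion transporter, was at 38.4, 85.7, 48.7 and 54.5 CPM in libraries 1 to 4 against 279, 234, 148 and 216 (-1.62 (range -2.58 to -1.35)), and it was the early-segment gene still called without other markers (-1.07 (range -1.72 to -0.95)). Its neighbour in function Slc22a6 was at 155, 325, 125 and 327 CPM against 776, 703, 402 and 548 (-1.35 (range -2.26 to -0.73)) and at -0.42 without other markers. Slc7a13 and Acsm3, genes of the late segment, were called lower in both comparisons, with medians of -1.38 and -1.31 and then -1.32 and -1.87. Kap, the androgen-regulated kidney protein, was at 11282, 15270.3, 3357 and 22088 CPM against 43209, 41154, 9947 and 25113. In library 4 its levels in both groups were close, and without other markers its libraries differed in sign (-0.73 (range -0.94 to 0.49)).

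The lowest ratios belonged to Klk1, Ttr, G6pc, Dnase1, Cyp2a5, Slc22a8, Cyp2d12, Umod, Cyp2a4, Acaa1b, Inmt and Defb1, of which Cyp2a4 and Cyp2a5 are near-identical copies whose reads cannot be told apart. G6pc, the last enzyme of gluconeogenesis, was at 81.3, 187, 92.0 and 63.9 CPM against 539, 590.2, 266 and 382 (-2.01 (range -2.59 to -1.44)) and was called without other markers (-1.72 (range -2.35 to -0.96)). Klk1 and Umod are products of distal segments. Klk1 was at 23.2, 4.23, 7.22 and 0 CPM against 86.8, 64.9, 289 and 94.5, and Umod, the thick ascending limb protein uromodulin, at 42.9, 41.2, 18.05 and 21.3 against 123, 137, 434 and 87.7. Of 16 fatty acid oxidation genes, 3 were called lower (Ehhadh and Acaa1b among them) and none higher (median -0.67). Without other markers 0 of 16 were called, with a median of -0.36.

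Levels were graded with the number of Vcam1 UMIs. In barcodes with 0, 1, 2, 3 or 4, and 5 or more Vcam1 UMIs, Dcdc2a was at 18.03, 65.8, 90.7, 154 and 261 CPM, C3 at 23.1, 220.1, 341, 521 and 631, and Nfkbia at 97.6, 233, 272, 508 and 835. Each step was upward for these genes when libraries were pooled. In library 1 alone C3 went from 363 to 358 CPM between 2 and 3 or 4 UMIs, and in library 2 Nfkbia went from 241 to 203 between 1 and 2, while Dcdc2a was upward at each step in both. Proximal tubule markers were at 39391, 34578, 24384, 18232 and 9718 CPM, each step downward when libraries were pooled, and Kap made up 32595, 29148, 19811, 14930.1 and 7972 of these. In library 2 the sum went from 23104 to 23846 between 2 and 3 or 4 UMIs. Without Kap they were at 6796, 5431, 4573, 3302 and 1746 CPM, and within library 1 they went from 8601 to 1684 and within library 2 from 6585 to 1999.6, downward at each step. Parietal epithelial markers went from 23.8 to 1172 CPM over the same classes, and Akap12 from 4.55 to 547. Median depth was also graded, at 5956, 6967.5, 8919.5, 9562 and 11149.5 UMIs, and its part in these steps was not tested. Barcodes with 1 Vcam1 UMI, just outside the rule, thus lay between the groups compared for these pooled levels.

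**Figure D3:**
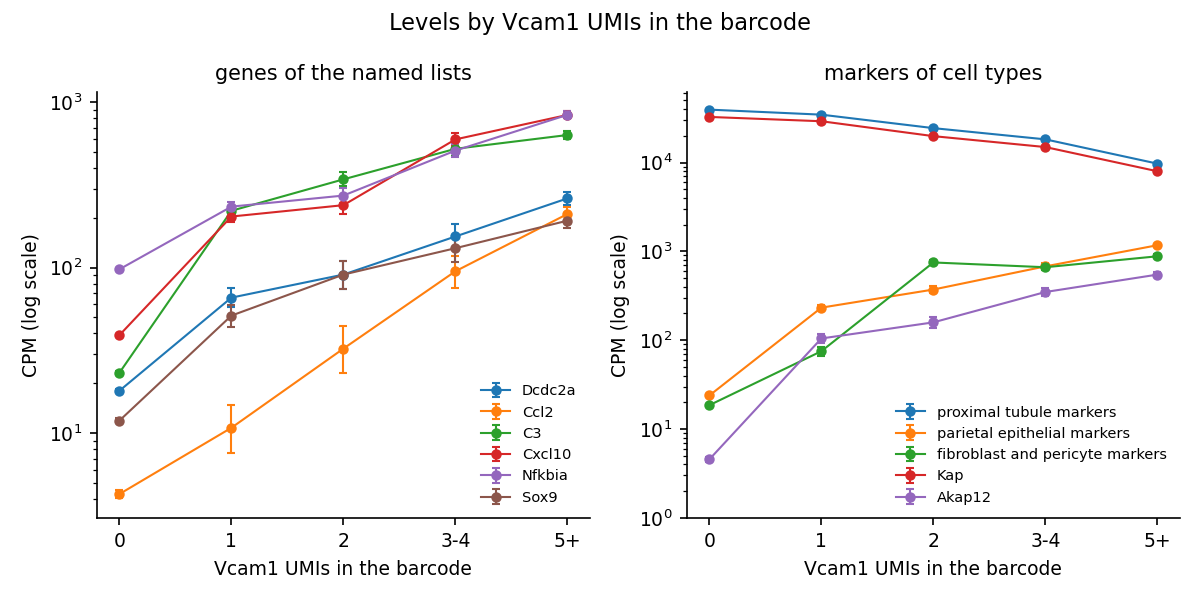
Levels in CPM on a log axis by the number of Vcam1 UMIs in the barcode, with exact 95% Poisson intervals, for 6 genes of the named lists (left) and for cell type markers (right). Dcdc2a, Ccl2 and C3 rise from the class without Vcam1 to that with 5 or more, as do parietal epithelial markers, and proximal tubule markers fall.

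The 305 barcodes formed 6 clusters, numbered by size, which describe how they differed among themselves. Clusters 2 (60 barcodes), 5 (39) and 6 (27, given below) had proximal tubule markers among their leading genes. Cluster 2 was led by Kap, Slc5a8 and Slc7a13 of the late segment, with proximal tubule markers at 46559.5 CPM, and cluster 5 by Car3, Dpep1, Gatm, Slc22a8, Miox and Slc5a2, at 27363. Without Kap the markers were at 5324 and 6588 CPM against 6796 in Vcam1-zero barcodes, and 4498 in cluster 6. In cluster 2 the early-segment list had a median log2 ratio of -0.84, with 8 of 16 genes past -1. Over all 5671 genes tested the median there was 0.07, and 65 genes (1.15%) were past -1. Clusters 1, 3, 4, 5 and 6 had 8, 16, 13, 1 and 3 of the 16 past -1. Over all genes the shares in these clusters were 5.15%, 15.9%, 6.63%, 4.80% and 4.64%. Of the barcodes of clusters 2 and 5, 48 and 34 were without other markers. Cluster 5 had the lowest Vcam1 level (196 CPM (159 to 239)) and a median of 2 Vcam1 UMIs.

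Cluster 1 (83 barcodes) was led by Ccl2, Cxcl2, Ubd, Dock10, Aoc1 and H2-Aa, and was not named. It held most of the Ccl2, at 403 CPM (362 to 447) against 125 in cluster 3 and 1.39 in cluster 2. As above, 10 barcodes of the 305 held most Ccl2 UMIs. At least 2 Ccl2 UMIs were in 16 of the 53 barcodes of cluster 3 and in 10 of the 83 of cluster 1. In cluster 1 Cxcl1 was at 1183 CPM (1113 to 1257), C3 at 977 CPM (913 to 1044) and Sox9 at 246 CPM (215 to 281), while proximal tubule markers were at 5459 CPM. Its libraries 1 to 5 gave 21, 42, 14, 5 and 1 barcodes, 31 of the 83 were without other markers, and its median depth of 6957 UMIs was the lowest of the 6. Parietal epithelial markers stood at 384 CPM and fibroblast and pericyte markers at 10.2.

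Cluster 6 (27 barcodes, 22 of them in library 2 and the rest in library 1) was led by Snhg11, Slc5a12, Igfbp5 and Irak2. Slc5a12, a proximal tubule marker, was at 390 CPM there against 13.9 in cluster 2, and Slc34a1 at 3343 against 3024. The values that follow are of cluster 6. Its Cxcl10 level was 1184 CPM (1042 to 1341) and its Vcam1 level 718 CPM (608 to 842), with no Ccl2 UMI (0 CPM (0 to 17.5)). Parietal epithelial markers were at 28.5 CPM, and 24 of the 27 were without other markers. Clusters 1 and 6 thus had the highest Cxcl10 and Vcam1 levels in CPM and differed in Ccl2. Vcam1 was set by the rule. Its median in UMIs was highest in cluster 4, at 5, against 4 and 3 in clusters 1 and 6.

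Nearly all barcodes of clusters 3 and 4 held other markers. Cluster 3 (53 barcodes) was led by Acta2, Mgp, Tagln, Vim, Bgn and Csrp1, and none of its barcodes was without other markers. Its fibroblast and pericyte markers stood at 3125 CPM, parietal epithelial markers at 2068, and the median sum of Lrp2, Cubn and Slc34a1 was 2 UMIs at a median depth of 15066. Dcdc2a was highest here, at 418 CPM (379 to 459.5). Cluster 3 lay in libraries 1, 2 and 3 only, with 27, 21 and 5 barcodes.

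Cluster 4 (43 barcodes) was led by Lcn2, Krt18, Epcam, Tspan8, Krt7 and Cldn7, which epithelia express, and by Ccl5, a chemokine gene typical of T and NK cells. Parietal epithelial markers stood at 1107 CPM, Epcam at 197 and Akap12 at 571. It contributed 17 of the 36 barcodes of library 3, and its median depth was 17164 UMIs, with the highest doublet scores in 7 of the 43. Without cluster 3, which was left out after seeing the data, 211 genes were called higher and 69 lower.

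**Figure D4:**
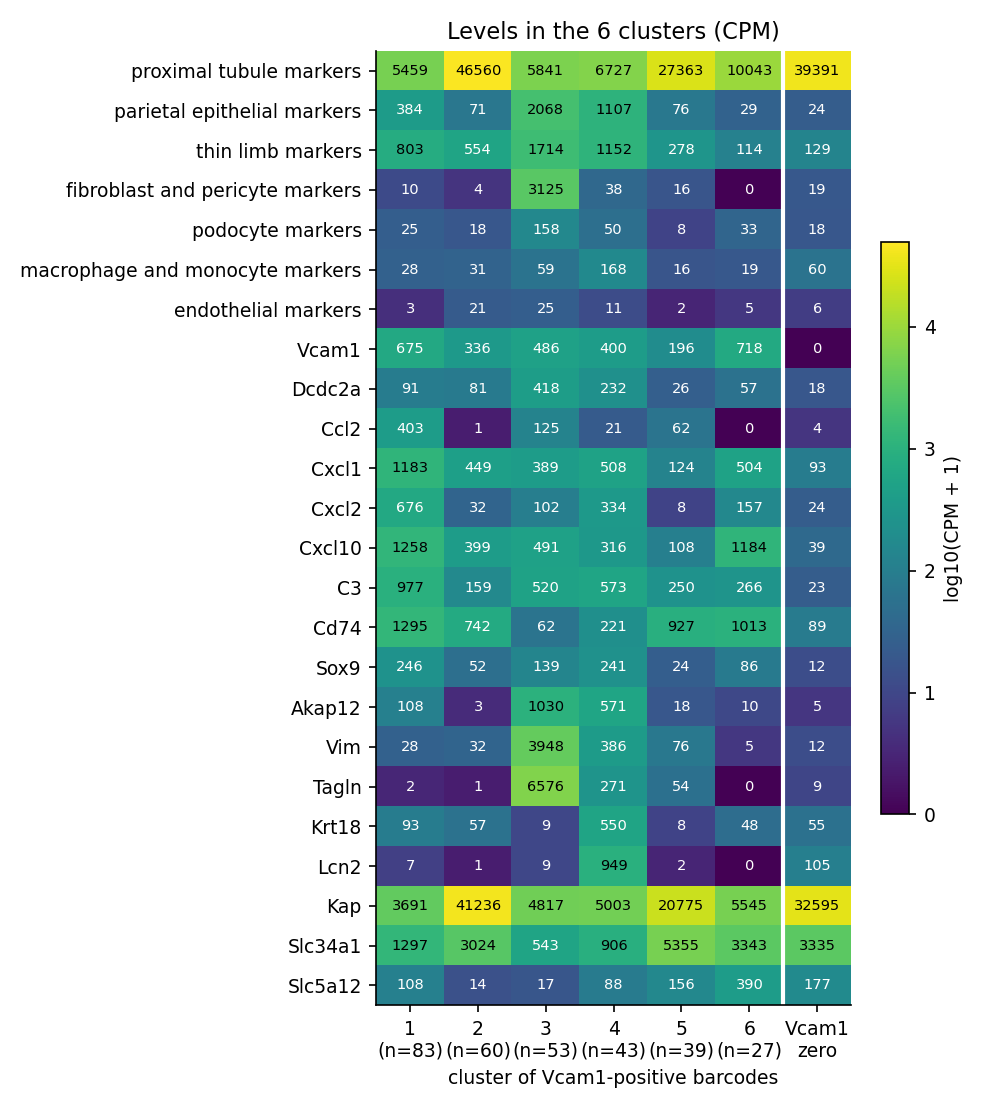
Levels in CPM (numbers, coloured by log10 of CPM + 1) of summed marker lists and single genes in the 6 clusters of Vcam1-positive barcodes and in Vcam1-zero barcodes. Clusters 2 and 5 have the highest summed proximal tubule markers of the 6, mostly from Kap, cluster 3 carries fibroblast and pericyte markers, clusters 3 and 4 carry parietal epithelial markers, and cluster 1 has the most Ccl2.

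Lists were unevenly distributed over the clusters against Vcam1-zero barcodes, read here from summed UMIs with 10 CPM added. The clusters were made from expression in these same barcodes, and leading genes such as Ccl2, H2-Aa and Slc7a13 belong to the lists. Differences between clusters are therefore a description. The median log2 ratio of the signals to leukocytes was 2.25, 0.77, 2.15, 1.67, 0.52 and 2.17 in clusters 1 to 6. Of its 9 genes, Ccl2, Il34 and Cx3cl1 were below 20 CPM in Vcam1-zero barcodes and were tested through the Vcam1-positive group. Antigen presentation and complement ran from 0.99 in cluster 4 to 2.49 in cluster 1, above the median of all genes in every cluster. Psmb8 and Cd59a of its 11 genes were likewise tested through the Vcam1-positive group. The early-segment tubule list was at -2.60 in cluster 3 and at 0.05 and 0.27 in clusters 5 and 6. The late-segment list was at -2.19, -0.33, -2.41, -1.59, -0.86 and -2.18 in clusters 1 to 6.

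Barcodes with both Vcam1 and Havcr1 lay outside the rule. There were 68 with at least 2 Vcam1 and at least 3 Havcr1 UMIs, of which libraries 1 to 5 held 16, 44, 4, 4 and 0, and 428 with at least 3 Havcr1 and no Vcam1, of which library 3 held 331. In the 68, Ccl2 was at 323 CPM (291 to 357), Cxcl2 at 903 CPM (849 to 959.6) and C3 at 1116 CPM (1056 to 1179). The 305 had 131 CPM (120.3 to 143), 248 CPM (233 to 264) and 519 CPM (497 to 542), and the 428 had 5.70 CPM (3.79 to 8.24), 66.8 CPM (59.8 to 74.5) and 73.7 CPM (66.3 to 81.7). Cxcl10 went the other way, at 443 CPM (405 to 483) in the 68 and 601 CPM (577 to 625) in the 305. Il34 was at 124 CPM (105 to 146) in the 68, 53.5 CPM (46.6 to 61.1) in the 305 and 50.1 CPM (44.0 to 56.8) in the 428. Cxcl1 was at 1329, 568 and 514 CPM and Spp1 at 35304, 12863 and 18303 CPM in the same order. Il34 intervals of the 305 and the 428 thus overlapped, and Spp1 was higher in the 428. Within library 2, which held 44, 149 and 48 of these barcodes, Ccl2 was at 418 CPM (373 to 468), 29.1 CPM (21.9 to 37.9) and 24.5 CPM (13.7 to 40.4) in the same order, C3 at 1373 CPM (1289 to 1461), 617 CPM (582 to 653) and 173 CPM (142 to 209), and Cxcl10 at 379.8 CPM (336 to 427), 623 CPM (588 to 659.5) and 261 CPM (222 to 305). Cxcl2 in library 2 was at 1108 CPM (1032 to 1187), 262 CPM (240 to 286) and 227 CPM (191 to 268). Cxcl1 there was at 1210 CPM (1131 to 1293), 466 CPM (436 to 498) and 611 CPM (551 to 676). Between the 149 and the 48 barcodes the Cxcl2 intervals overlapped, unlike in the pooled barcodes, and Cxcl1 was higher in the 48. Ccl2 and C3 were thus highest in the 68 in the pooled barcodes and in library 2, and Cxcl10 in the 305, of which 44 held 1 Havcr1 UMI and 20 held 2.

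Dcdc2a was at 144 CPM (123 to 168) in the 68, 186 CPM (173 to 200.03) in the 305 and 46.7 CPM (40.8 to 53.1) in the 428, but within library 2 these were 160.2 CPM (132 to 192), 189 CPM (169.7 to 209) and 165 CPM (134 to 201), with overlapping intervals. Krt20, a keratin of injured tubule, was at 112 CPM (93.4 to 133), 11.1 CPM (8.13 to 14.9) and 43.2 CPM (37.6 to 49.4) in the same order. Krt20 was at 1.99 CPM in Vcam1-zero barcodes with at most 2 Havcr1 UMIs, so it was higher with Vcam1 at both levels of Havcr1 and with Havcr1 at both levels of Vcam1. Akap12 and Vim were highest in the 305, at 386 CPM (367 to 405) and 1078 CPM (1046 to 1110.3) against 156 CPM (134 to 180.3) and 202 CPM (177 to 229.9) in the 68. Median depth was 14789.5 UMIs in the 68, 10102 in the 305 and 9485 in the 428, and its part in these levels was not tested.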

How the data were processed

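The authors aligned reads to mm10 with Cell Ranger (6.0 in the labels, 6.0.1 in the file header) and deposited 1 merged matrix of raw UMI counts for 32285 genes over 5 libraries, with no cell calling applied. The 5 libraries held 1119507, 1891055, 554131, 422353 and 50925 UMIs in the Vcam1-positive barcodes. The entry goblet cell in the labels was not used. No batch correction was made.

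Counts were summed per library and group to CPM. Ratios within a library needed at least 20 barcodes in each group, and no test was run because a measured gene of the same barcodes set the groups. Doublet scores were from Scrublet within each library, and barcodes with the highest scores (0.8% per 1000 barcodes) were kept. The Vcam1-positive barcodes were clustered on 2000 variable genes, 15 components and Leiden resolution 0.5 (scanpy 1.11.5). The calling step was tested on simulated sums of UMIs without spread between barcodes, and with changes larger than the calling limit. It therefore does not cover genes held by a few barcodes, such as Ccl2, or changes near that limit. Promoter sequences were those of RefSeq for GRCm38.p6.

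The barcodes, gene lists and markers were chosen with earlier results of these data known. Genes named were those of the rule, the members of 15 lists (4 examples with the largest median, and every failed-repair gene), and the 12 highest and 12 lowest called genes other than gene models, in each comparison. Genes given beyond these (Hnf4a, Krt8, Lcn2, Clu, Cx3cl1, Icam1, Spp1, Sox9, Sox4, and those of the cluster and Havcr1 comparisons) were picked after their values were seen. Alternatives changed the limits on barcodes, the doublets and markers kept, the libraries, the scaling, depth and the filters. Alternatives on cluster 3 and on the level in Vcam1-zero barcodes alone were added after seeing the data. Some genes that these choices named are not reported here.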

Additional observations from a re-analysis of the deposited data

How the results depend on the processing

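The share of barcodes with at least 2 Vcam1 UMIs (0.842%) was 1.96% with 1 UMI or more and 0.528% with 3 or more, 0.725% and 1.01% at depths of at least 1000 and 4000 UMIs, 1.43% with at most 10% mitochondrial UMIs, 0.720% with Havcr1 at 0, 0.679% with a sum of Lrp2, Cubn and Slc34a1 of at least 5, 0.419% without markers of other cell types, and 0.697% without the cluster led by Acta2 and Tagln, which was added after seeing the data. Leaving out each library gave 0.518% (without library 2) to 1.08%. Genes called higher (348) numbered 205 and 572 with at least 1 and at least 3 Vcam1 UMIs, 565 at 10% mitochondrial UMIs, 78 without markers of other cell types, 525 with no filter on level, 98 at a level of 100 CPM, 1025 at a log2 ratio of 0.5, and 211 without that cluster. In the same order genes called lower (126) numbered 11, 247, 329, 23, 139, 77, 548 and 69, and they were 71 at the sum of 5, 208 with 1 CPM added and 76 with Vcam1-zero barcodes weighted to the same depth. With the level set on Vcam1-zero barcodes alone, also added after seeing the data, 167 were higher and 135 lower. Without each library in turn 257 to 473 genes were higher and 84 to 182 lower. The causes of these shifts were not tested. With at least 3 Vcam1 UMIs, at 10% mitochondrial UMIs or without other markers, fewer libraries had 20 barcodes in each group. Of 209 named genes, 90 were called, and 7 values of called genes changed sign over 20 alternatives. Without markers of other cell types Tgfb2 was at -0.032, Ccn2 at -0.27, Runx1 at -0.071, Tagln at -0.058, Ankrd1 at -0.040 and Cald1 at -0.047, and Krt18 was at -0.042 with depth weighting. Libraries 3 and 5 held too few barcodes without other markers for a ratio. No paired test over libraries was run.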

Other observations

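Library 5, which entered no ratio, held 5 Vcam1-positive barcodes with 17 Vcam1 UMIs, or 334 CPM (194 to 534), and 1 of the 5 was without markers of other cell types.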
